A study of Saccharomyces cerevisiae with 4 samples.

Results

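Cytochrome c, the enzymes that attach its heme, its peroxidase and the yeast lactate dehydrogenases were followed in ribosome footprints taken from the surface of mitochondria. The set holds 10 genes, found by name among the 6692 genes of the deposited table: CYC1, CYC7, CYC3, CYT2, CYC2, CCP1, CYB2, DLD1, DLD2 and DLD3. Budding yeast of strain S288C carried Om45, a protein of the mitochondrial outer membrane, fused at its own locus to mVenus and the biotin ligase BirA (om45::OM45-mVenus-BirA::HIS5). All 4 libraries share that allele, the tagged ribosomal protein genes rpl16a::RPL16a-HA-TEV-AVI and rpl16b::RPL16b-HA-TEV-AVI, a second BirA gene behind the PGK1 promoter (leu2::pPGK1-BirA::LEU2), and ura3Δ0, met15Δ0 and his3Δ1. That second ligase gene carries no Om45 in its name, and its part in the biotin mark was not tested.

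Cells grew in SD medium with 0.125 ng/ml biotin and then received 10 nM biotin for 2 min, which marks ribosomes near the ligase. In the libraries with cycloheximide, a drug that halts elongation and holds ribosomes on their messages, 100 µg/ml was added 2 min before the biotin, and the libraries without it had 0 µg/ml. In each condition a streptavidin pulldown of marked ribosomes was sequenced beside an input of all ribosomes. Each of the 4 groups held 1 library, so there is no replicate check and no test, and intervals in brackets are 95% intervals that cover counting error only. Reads over listed genes numbered between 15705022 and 37467060 a library, and the bait OM45 stood at 4.27 (4.19 to 4.34) with cycloheximide and 2.26 (2.13 to 2.40) without it, on the log2 scale explained below.

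Cytochrome c is a small soluble heme protein of the intermembrane space that carries electrons from the cytochrome bc1 complex to cytochrome oxidase. It has no cleaved presequence: its apoprotein crosses the outer membrane and is held inside once a heme lyase attaches heme. Cytochrome c peroxidase and the L-lactate dehydrogenase cytochrome b2 reach the same space another way, with an N-terminal presequence that starts import through both membranes before the protein is cleaved and released. Footprints report where ribosomes sit while these proteins are still being made, and the comparison bears on whether proteins of one compartment that differ in their import signal also differ in translation near the outer membrane.

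Every member had enough reads to be measured in every comparison, set at 100 reads over the libraries compared. Enrichment is given as log2 of pulldown over input, centred on the median gene, so 0 is the median gene and 1 is 2-fold above it. On library totals the median gene itself lay at -0.73 with cycloheximide and at -0.03 without it. With cycloheximide 6 of the 10 genes lay at least 2-fold above it, beside 12.5% of the 5464 genes measured, and the median of the 10 was 1.31. All members but DLD3 are annotated as mitochondrial, and of all genes so annotated 365 of 577 passed that line, with a median of 2.19. None of the 10 was at least 2-fold below the median gene, beside 0.201% of all genes. On library totals 4 of 10 members, 499 of all genes above and 880 below were past 2-fold, against 682 and 11 around the median gene. Without the drug 4 of 10 were above, beside 6.39% of 5148 genes, with a median of 0.57, and none below, beside 0.0777%. Of genes annotated as mitochondrial 197 of 571 were above without the drug, with a median of 0.44. The 10 genes were put together with earlier results of these libraries known, so these counts describe them and are no support for a rule.

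Together the 10 genes made up 0.348% of the reads over nuclear genes in the input with cycloheximide and 0.894% in its pulldown, and 0.214% and 0.364% without the drug. Their make-up changed between input and pulldown. DLD3 held 71.3% of the members' reads in the input with cycloheximide and 15.4% in the pulldown. DLD1 went from 7.93% to 38.5% and CCP1 from 8.47% to 29.3% of those reads. Without the drug DLD3 kept the largest part of the pulldown, 41.1%, and DLD1 held 30.5%.

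**Figure D1:**
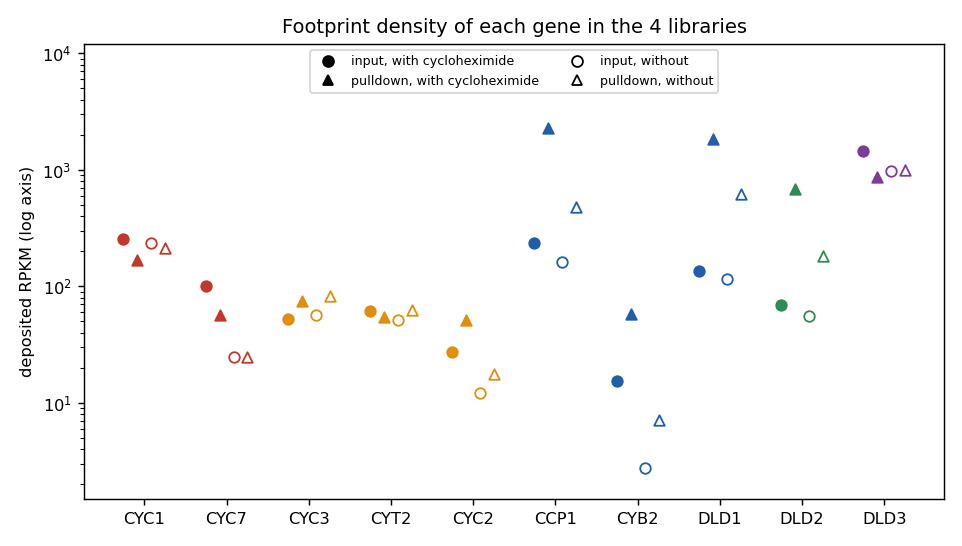
Deposited RPKM of each gene on a log axis, with circles for inputs, triangles for pulldowns, filled symbols with cycloheximide and open symbols without it, 1 library each. Colours give the role of the gene: cytochrome c red, heme attachment orange, CCP1, CYB2 and DLD1 blue, DLD2 green and DLD3 purple. The filled triangles of CCP1 and DLD1 lie at 2275 and 1842, well above their filled circles at 235 and 135, while the symbols of CYC1 lie between 167 and 255.

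The main isoform of cytochrome c, CYC1 (YJR048W), is a protein-coding gene on chromosome X from 526335 to 526664 in RefSeq assembly R64, the yeast reference genome, and encodes 109 amino acids. Its footprint density was 255 RPKM (a read density per gene length and library size) with cycloheximide in the input and 167 in the pulldown, and without it 237 and 211. Both pulldowns were lower than their inputs. The reads behind these densities were 2187, 2192, 1441 and 1105. Relative to the median gene the enrichment was 0.00 (-0.09 to 0.08) with cycloheximide and -0.14 (-0.25 to -0.03) without it. With the drug CYC1 ranked 2760 of 5464 genes from the top, in the middle of the table.

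CYC7 (YEL039C, chromosome V from 79636 to 79977, 113 amino acids) encodes the second isoform, known for its expression when oxygen is low, and the deposited table lists it and CYC1 as ohnologs, a gene pair left by the ancient whole-genome duplication. With cycloheximide its density was 101 RPKM in the input and 56.7 in the pulldown, and without it 24.9 and 24.5. The pair of libraries with cycloheximide was higher than the pair without. Enrichment of CYC7 stood at -0.23 (-0.37 to -0.09) with the drug and 0.00 (-0.34 to 0.35) without it, the latter on 157 input and 133 pulldown reads. With the drug CYC7 lay 0.22 below CYC1 (0.06 to 0.39 below, written as a log2 difference of -0.22 with bounds of -0.39 and -0.06), and without it the interval of their difference, -0.21 to 0.50, contained 0. The isoforms are closely related in sequence, and the sources used here do not say how reads matching both were assigned.

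The lyases that join heme to these proteins were closer to the median gene than the presequence-bearing enzymes, and they differed from each other. CYC3 (YAL039C, chromosome I from 68716 to 69525) encodes cytochrome c heme lyase. With cycloheximide it held 1105 input and 2430 pulldown reads, and without it 849 and 1056. Its enrichment was 1.13 (1.03 to 1.23) with and 0.56 (0.43 to 0.69) without the drug. CYC3 was the member nearest above the 2-fold line with cycloheximide, and on library totals, at 0.40, it was no longer 2-fold higher.

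CYT2 (YKL087C, chromosome XI from 277189 to 277863) encodes the lyase for cytochrome c1, the heme subunit of the bc1 complex. It held 1082 input and 1458 pulldown reads with cycloheximide, and 637 and 671 without. Enrichment was 0.42 (0.31 to 0.54) with and 0.32 (0.16 to 0.48) without the drug, which made it the member nearest below the 2-fold line with cycloheximide. On library totals the value with the drug was -0.30, on the other side of 0. CYC3 exceeded CYT2 by 0.71 (0.55 to 0.86) with the drug and by 0.24 (0.04 to 0.44) without it. CYT2 in turn exceeded CYC1 by 0.43 (0.28 to 0.57) and 0.46 (0.26 to 0.65).

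CYC2 (YOR037W, chromosome XV from 401555 to 402655) encodes a flavoprotein of the inner membrane that takes part in heme attachment to cytochrome c. It held 788 input and 2233 pulldown reads with cycloheximide and 245 and 309 without. Enrichment was 1.49 (1.38 to 1.61) with and 0.58 (0.33 to 0.83) without the drug. On library totals the value with cycloheximide was 0.77, under 2-fold. The difference between CYC2 and CYC3 was 0.37 (0.21 to 0.52) with the drug, and without it the interval of -0.25 to 0.29 contained 0.

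CCP1, CYB2 and DLD1, the enzymes taken here as presequence-bearing, stood far above cytochrome c. CCP1 (YKR066C, chromosome XI from 566113 to 567198, 361 amino acids), the peroxidase that uses cytochrome c to remove hydrogen peroxide, had 235 RPKM in the input and 2275 in the pulldown when cycloheximide was present, and 160 and 477 when it was not. Both pulldowns were higher than either input. With the drug 6632 input reads faced 98179 pulldown reads. Enrichment was 3.88 (3.84 to 3.92) with and 1.60 (1.54 to 1.66) without cycloheximide, at rank 29 of 5464 and rank 157 of 5148 genes.

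CYB2 (YML054C, chromosome XIII from 165533 to 167308, 591 amino acids), the L-lactate dehydrogenase that passes electrons to cytochrome c, had the fewest reads of the 10 in both inputs. It held 710 input and 4123 pulldown reads with cycloheximide and 91 and 200 without it, or 15.4, 58.4, 2.78 and 7.10 RPKM. The pulldown exceeded the input in both conditions. Its enrichment was 2.53 (2.42 to 2.65) with and 1.37 (1.01 to 1.75) without the drug. With the drug CYB2 lay below CCP1, which exceeded it by 1.35 (1.23 to 1.47), whereas without it the interval of that difference, -0.14 to 0.58, contained 0.

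DLD1 (YDL174C, chromosome IV from 145826 to 147589, 587 amino acids) encodes D-lactate dehydrogenase of the inner membrane, which also donates electrons to cytochrome c. With cycloheximide 6208 input reads faced 129096 pulldown reads, and without it 3742 faced 17460. DLD1 had the highest enrichment of the 10 genes in both conditions, at 4.37 (4.33 to 4.41), rank 3 of all genes measured, and at 2.46 (2.41 to 2.52), rank 22. It exceeded CCP1 by 0.49 (0.44 to 0.54) with the drug and 0.87 (0.79 to 0.95) without. It exceeded CYB2, the other lactate dehydrogenase coupled to cytochrome c, by 1.84 (1.72 to 1.96) and 1.09 (0.73 to 1.45).

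**Figure D2:**
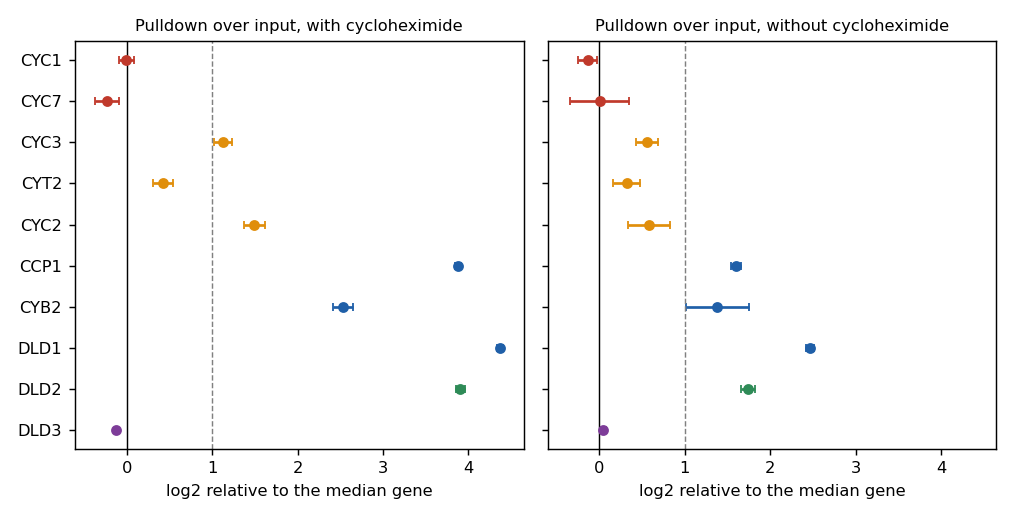
Enrichment of each gene in log2 relative to the median gene, with cycloheximide (left) and without it (right). Points are single library pairs, bars are 95% counting intervals, the solid line is the median gene and the dashed line is 2-fold above it. With cycloheximide CYC1 at 0.00 lies at the solid line and CYC7 at -0.23 slightly left of it, and CCP1 at 3.88 and DLD1 at 4.37 lie far to its right.

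The median of CCP1, CYB2 and DLD1 exceeded the mean of CYC1 and CYC7 by a log2 of 4.00 (3.91 to 4.09) with cycloheximide. This was a 16.0-fold difference. Without the drug the gap was 1.66 (1.48 to 1.85), or 3.17-fold. CCP1 was the middle enzyme in both conditions. The brackets therefore hold the counting error of CCP1 and cytochrome c, and no spread among the enzymes. With the drug CYB2 stood at 2.53 and DLD1 at 4.37, against a cytochrome c mean of -0.12. CYC2, grouped with heme attachment, was not part of this contrast, although its predicted presequence score, given below, was the highest of the members. It stood at 1.49 with the drug and 0.58 without it, below each of CCP1, CYB2 and DLD1. Leaving it out therefore makes the gap larger. The gap does not depend on the centring, since the median gene cancels in it. Set directly against CYC1, CCP1 had 0.921 times the RPKM of CYC1 in the input with cycloheximide and 13.6 times in the pulldown, and 0.677 and 2.26 times without the drug.

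DLD2 and DLD3 are related enzymes that act on D-2-hydroxyglutarate and belong to the family of DLD1. In the deposited annotation DLD2 is a matrix protein seen by GFP fusion in mitochondria, whereas DLD3 has no mitochondrial annotation and its GFP fusion was seen in the cytoplasm and nucleus. DLD2 (YDL178W, chromosome IV from 139522 to 141114, 530 amino acids) lies 4711 bases from DLD1. It held 2856 input and 42997 pulldown reads with cycloheximide, and 1620 and 4564 without. Enrichment was 3.90 (3.85 to 3.96) with and 1.74 (1.66 to 1.82) without the drug.

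DLD3 (YEL071W, chromosome V from 16355 to 17845, 496 amino acids) was the most densely read member in both inputs, with 1441 RPKM with cycloheximide and 979 without. Its pulldowns stood at 870 and 993 RPKM, so the pulldown was lower than the input with the drug and close to it without. Enrichment was -0.12 (-0.14 to -0.11) with and 0.05 (0.02 to 0.07) without cycloheximide. Within this pair DLD2 exceeded DLD3 by 4.03 (3.97 to 4.09) with the drug and 1.69 (1.61 to 1.78) without it. Per length DLD3 had 20.9 times the density of DLD2 in the input with cycloheximide and 1.28 times in the pulldown.

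The order of the members was alike in both conditions at its upper end. From the top it ran DLD1, DLD2, CCP1, CYB2, CYC2, CYC3 and CYT2 in each, and CYC1, CYC7 and DLD3 took the lowest places in changing order. Over 15 pairs compared, neighbours whose difference had an interval containing 0 were DLD2 and CCP1 with cycloheximide (-0.04 to 0.09), CYC2 and CYC3 without it (-0.25 to 0.29), CCP1 and CYB2 without it (-0.14 to 0.58), DLD3 and CYC7 in both, and CYC7 and CYC1 without it. These intervals hold no spread between libraries. In the authors' deposited table, CCP1, CYB2, DLD1 and DLD2 are marked as enriched with cycloheximide and CCP1, DLD1 and DLD2 without it, with no call for CYB2. The remaining members are marked as not enriched in both, including CYC3 and CYC2, whose deposited log2 enrichments with cycloheximide were 0.52 and 0.89.

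**Figure D3:**
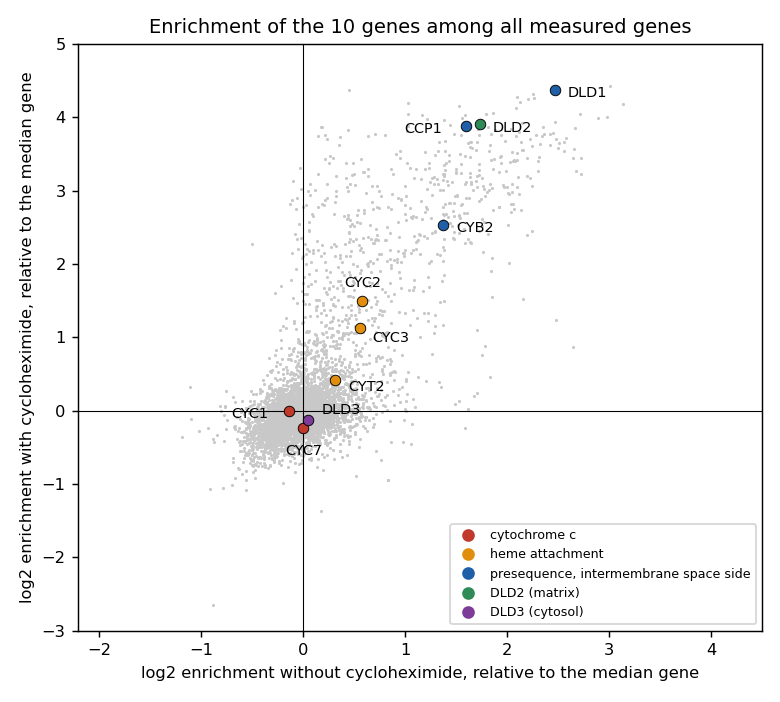
Enrichment with cycloheximide (vertical) against enrichment without it (horizontal), both in log2 relative to the median gene, for nuclear genes measured in both conditions in grey and the 10 genes in colour by role. CYC1, CYC7 and DLD3 lie inside the dense cloud around 0, CCP1, DLD2 and DLD1 lie in its upper right arm, and CYC2 and CYC3 lie between.

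The MitoProt score in the deposited table, a prediction of a mitochondrial presequence from 0 to 1, did not separate the members in the same way. It was 0.998 for CYC2, 0.991 for DLD2, 0.989 for DLD1, 0.976 for CCP1 and 0.598 for CYB2. CYC1 scored 0.850, above CYB2, although cytochrome c is known to lack a presequence, and CYC7 scored 0.463. DLD3 scored 0.238, CYC3 0.0482 and CYT2 0.039. CYC3, with a score near 0, was 2-fold above the median gene, and CYC1, with a high score, was at it.

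Against other proteins of its compartment, cytochrome c lay with the majority under the 2-fold line, and with cycloheximide at the low end of it. The deposited annotation places 25 nuclear genes in the intermembrane space, with a median of 0.31 with the drug. CYC7 was the lowest of them at -0.23, and only ERV1, at -0.08, stood between it and CYC1. Of the 25, 7 passed the 2-fold line when cycloheximide was present: CCP1, CYB2, CYC3, MCR1, MIA40, PRD1 and ISA2. With a score limit of 0.5, chosen after these values were seen, 6 of the 8 genes at or above it and 1 of the 17 below it were among them. The exceptions above the limit were CYC1 and ACN9, at 109 and 133 amino acids, and the exception below it was CYC3. Without the drug the counts were 4 of 8 and 0 of 17. CYC1, CYC7, CYC3, CYT2, CCP1 and CYB2 are among the 25. Leaving them out, 4 of 19 passed the line with the drug, with a median of 0.28, and 2 of 19 without it. The shares over all genes were 12.5% and 6.39%. Because the limit was picked on these same values, the split describes these genes and tests nothing.

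Of other presequence-bearing proteins of this space or of the inner membrane face towards it, all 5 passed the 2-fold line in the presence of cycloheximide, with a median of 3.87. They ran from MCR1, an NADH-cytochrome b5 reductase, at 3.25 to MGM1, the GTPase of inner membrane fusion, at 4.01, and CYT1, the heme-bearing partner of cytochrome c in the bc1 complex, was at 3.88. Without the drug 4 of 5 passed it, with a median of 1.59. Over all genes 12.5% passed with the drug and 6.39% without it. CCP1 and DLD1 lay within or above the range of this list with the drug, and CYB2 lay below its lowest member.

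Of 9 small intermembrane space proteins without a presequence, none passed the 2-fold line in either condition. The shares over all genes were 12.5% with the drug and 6.39% without it. A count of none in so short a list is near those shares. With cycloheximide the 9 ran from TIM8, a small chaperone of protein import, at 0.02 to COX23, an assembly factor of cytochrome oxidase, at 0.34. Their median was 0.18. Both isoforms of cytochrome c lay below that range, and CYC3 lay above it. Without the drug the list ran from TIM9 at -0.26 to TIM13 at 0.28, a range that held both CYC1 and CYC7.

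The cytosol-made subunits of cytochrome oxidase, which receives electrons from cytochrome c, stayed near the median gene as well. None of 8 was 2-fold above it, beside 12.5% of all genes with cycloheximide and 6.39% without. With the drug the 8 subunits ran from COX7 at -0.28 to COX4 at 0.51. Several of them carry high scores, such as COX6 at 0.9996 with 148 amino acids and COX8 at 0.986 with 78.

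**Figure D4:**
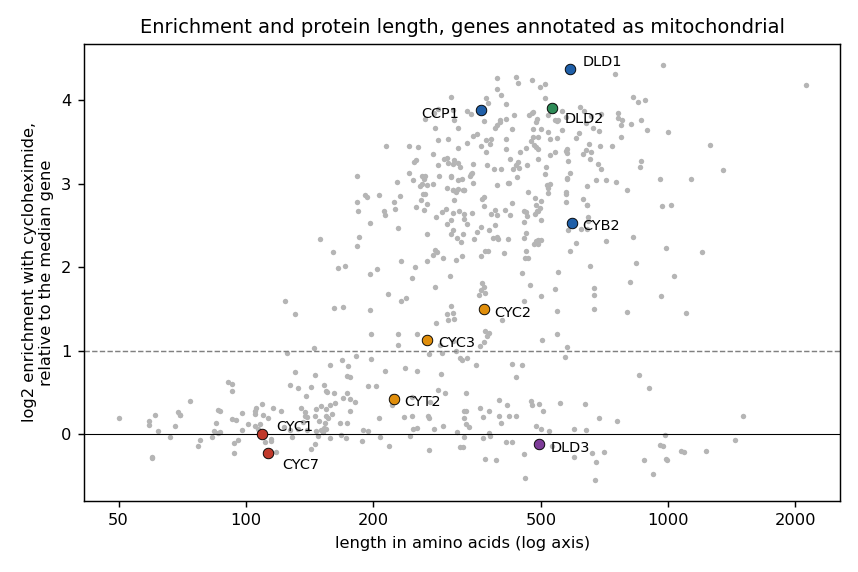
Enrichment with cycloheximide in log2 relative to the median gene (vertical) against protein length on a log axis (horizontal). Grey points are nuclear genes measured in both conditions that the authors' annotation places in mitochondria, coloured points are the 10 genes (DLD3 lacks that annotation), and the dashed line is 2-fold above the median gene. CYC1 and CYC7 lie among proteins of like or shorter length, none of which passes the dashed line, and CCP1, CYB2, DLD1 and DLD2 lie among longer ones.

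Length also differed between cytochrome c and CCP1, CYB2 and DLD1. In that contrast it cannot be told apart from the import signal, since cytochrome c is both short and without a presequence. Leaving the members out, 0 of 43 measured nuclear genes annotated as mitochondrial and no longer than CYC7 passed the 2-fold line with cycloheximide. Without it 1 of 43 did. Of these, 13 scored at least as high as CYC1, and 0 of the 13 were above in either condition. Of other annotated genes at least as long as CCP1, 215 of 270 were above with the drug and 136 of 268 without. Length did not order all the members: CYC2, at 366 amino acids, stood at 1.49 with cycloheximide, and CCP1, at 361, stood at 3.88. DLD3, which is 496 amino acids long and has no mitochondrial annotation, stood at -0.12. CYT2 and CYC3, at 224 and 269 amino acids, lie in the range between CYC7 and CCP1. There 144 of 255 other annotated genes were above with the drug.

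CCP1 and DLD2 differed most between the conditions among the 10 genes, and the interval of the difference between them, -0.24 to 0.00, contained 0. Enrichment with minus without cycloheximide, centred on a median gene that lay at -0.65, stood at 2.24 (2.17 to 2.31) for CCP1, 2.13 (2.03 to 2.22) for DLD2, 1.86 (1.80 to 1.93) for DLD1 and 1.11 (0.74 to 1.49) for CYB2. These 4 of 10 passed 2-fold, beside 9.57% of 5141 genes and 311 of the 571 annotated as mitochondrial. None of the 10 was 2-fold below, beside 0.622%. On library totals CYB2, at 0.46, no longer did, and over all genes 234 were above and 693 below 2-fold, against 492 and 32.

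The other members were under 2-fold in this comparison. CYC2 stood at 0.88 (0.61 to 1.14) and CYC3 at 0.53 (0.36 to 0.70), the latter at -0.12 on library totals. CYC1 at 0.09 (-0.05 to 0.24), CYT2 at 0.06 (-0.13 to 0.26) and CYC7 at -0.28 (-0.64 to 0.08) had intervals that contained 0. On library totals CYC1, CYT2 and CYC7 were at -0.56, -0.59 and -0.93. DLD3 stood at -0.21 (-0.24 to -0.18), and at -0.86 on library totals. DLD1 had the higher enrichment in each condition but a smaller difference than CCP1, by 0.38 (0.29 to 0.47, written as -0.38 with bounds of -0.47 and -0.29). CYT1 had the highest difference of the presequence list, 2.81, and MGM1 the lowest, 0.98.

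**Figure D5:**
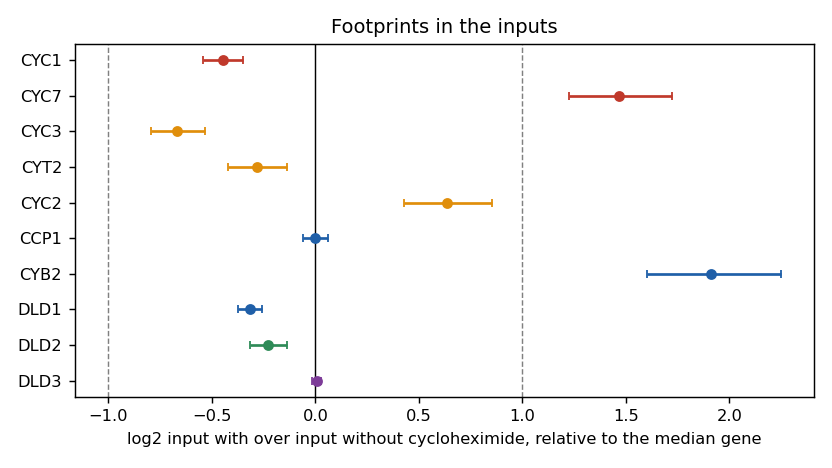
Input with over input without cycloheximide in log2 relative to the median gene for each gene, with 95% counting intervals and 1 library on each side. The solid line is the median gene and the dashed lines are 2-fold either way. CYB2 at 1.91 and CYC7 at 1.47 lie past the right dashed line, and none of the 10 lies past the left one.

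The ratio of the inputs lay off the median gene beyond counting error for all members but CCP1 and DLD3. Here the drug and the state of the separate cultures cannot be told apart. The median gene stood at 0.74 on library totals. CYB2, the gene for growth on L-lactate, was at 1.91 (1.60 to 2.25) relative to it, and CYC7 at 1.47 (1.23 to 1.73). These 2 of 10 passed 2-fold, beside 10.6% of 5380 genes, and none was 2-fold below, beside 10.4%, so a count this small is not a result about the set. On library totals 1875 genes were above and 115 below 2-fold, against 568 and 560. CYC2 stood at 0.64 (0.43 to 0.85), and on library totals, at 1.37, it too was past 2-fold. CCP1 and DLD3 were at 0.00 and 0.01, DLD2 at -0.23, CYT2 at -0.28, DLD1 at -0.32, CYC1 at -0.44 and CYC3 at -0.67. On library totals none of the 10 was below 0, with CYC3 lowest at 0.07.

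The isoforms of cytochrome c stood on opposite sides of the median gene in the inputs, and on library totals both were above 0, CYC1 at 0.29 and CYC7 at 2.20. CYC7 exceeded CYC1 by 1.91 (1.65 to 2.17), a 3.76-fold difference. Of the reads in both isoforms, CYC7 held 29.1% (Wilson interval 27.6% to 30.8%) in the input with cycloheximide and 9.82% (8.46% to 11.4%) in the input without. The pulldowns held 26.0% (24.5% to 27.6%) and 10.7% (9.14% to 12.6%), near their own inputs. CYC1 had 2.52 times the density of CYC7 in the input with the drug and 9.51 times without.

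The lactate dehydrogenases did not move together in the inputs either. DLD1 had 8.80 times the RPKM of CYB2 in the input with cycloheximide and 41.4 times in the input without. Among 8 genes that work beside them, JEN1, the lactate permease, held 648 input reads with the drug and 15 without, at 4.34 (3.65 to 5.23), and ADY2, an acetate permease, held 436 and 27, at 2.94 (2.41 to 3.59). YHR162W, which the reference names MPC2, a subunit of the pyruvate carrier, stood at 1.56. These 3 of the 8 passed 2-fold, beside 10.6% of all genes. SER3, which makes D-2-hydroxyglutarate beside its role in serine synthesis, was at -2.14. It was the 1 gene of the 8 at least 2-fold below, beside 10.4% of all genes. In pulldown over input with cycloheximide NDI1, the internal NADH dehydrogenase, was highest of the list at 3.20 and JEN1 lowest at -0.86, and 2 of 8 were 2-fold above. Without the drug 0 of the 6 measured were. The shares over all genes were 12.5% with the drug and 6.39% without it.

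A further 6 genes are known to answer to heme through the factor Hap1, as are CYC1, CYC7 and CYB2. Whether Hap1 was active in these cells was not tested. CTT1, the cytosolic catalase, had an input ratio of 1.33 and was the 1 of 6 that passed 2-fold, beside 10.6% of all genes. YHB1, a flavohemoglobin, was lowest at -0.94, and the list median was -0.25. In enrichment, CYT1 was the 1 of 6 to pass 2-fold in each condition, beside 12.5% of all genes with cycloheximide and 6.39% without. DLD3 is a retrograde response gene, and 4 others were listed beside it. CIT2, the peroxisomal citrate synthase, was highest of the 4 in the input ratio at 0.85. IDH1 was lowest at -1.55, and ACO1, IDH1 and IDH2 were at least 2-fold below, beside 10.4% of all genes. The enrichment of the 4 with cycloheximide ran from CIT2 at 0.09 to ACO1, aconitase, at 3.76.

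The nearest patterns were sought over 3 values of each gene, the enrichment in each condition and the input ratio, among 5140 genes, as the Euclidean distance in log2 units. CYC1 was nearest to SEF1, a transcription factor gene, at a distance of 0.02, then to TPK3, a subunit of protein kinase A, and BEM3, and 324 genes lay within 0.25 of it. DLD3 was nearest to DCC1, GOT1 and YEL1, with 418 genes within 0.25. CYB2 had 0 genes within that distance. Its nearest were CLD1, a phospholipase that acts on cardiolipin, at 0.25 (2.78 with cycloheximide, 1.37 without and 1.96 for the inputs), YDL183C at 0.56 and CRD1, the cardiolipin synthase, at 0.60. These distances rest on 1 library per group and the 3 values share libraries.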

How the data were processed

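Per the file headers, the authors' deposited counts are raw reads mapped to each gene, and the deposited RPKM scales them to gene length and library reads. The authors' log2 enrichment is the log2 of pulldown over input RPKM, per the file headers, and the MitoProt score is the authors' prediction for each gene. Per the submitters' processing notes, CASAVA and build sacCer3 were used. No source used here names the aligner or how reads matching several genes were handled. The 5 columns of another fusion protein were not used.

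Counts of each library were scaled to its nuclear genes, with a pseudocount of 0.5 reads, and ratios were centred on the median of genes with at least 100 reads over the libraries compared. The 95% intervals are Clopper-Pearson on pairs of counts, Wilson for shares and normal on the log scale for differences. PCR copies could not be told from separate molecules, so intervals cover counting error only. All 10 identifiers and coding lengths matched RefSeq R64, and no member overlapped another annotated gene. The code was tested on simulated data. Of the 8 lactate partners, 3 were matched through the reference's newer names.

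The 10 genes and the 6 lists were chosen with earlier results of these data known. Named are the members, OM45, the highest and lowest gene of each list, and the 3 nearest patterns of CYC1, CYB2 and DLD3. Other genes named, such as those of the intermembrane space, COX6, COX8, CYT1 and ADY2, were chosen after their values were seen. Sequences were not analysed here. Alternatives were library totals or TMM for scaling, folds of 1.5 and 4, minimums of 20 and 500 reads, 1 read as pseudocount, and the deposited log2 values or RPKM. Python 3.11.15, numpy 2.4.6, pandas 2.3.3, scipy 1.17.1, matplotlib 3.10.9 and, for TMM, edgeR 4.0.16 in R 4.3.3 were used.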

Additional observations from a re-analysis of the deposited data

Results flagged for a closer look

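DLD3, the cytosolic member, lay on opposite sides of the median gene in the 2 conditions, with counting intervals that excluded it in each: -0.124 with cycloheximide and 0.0453 without. The side above 0 was not kept beyond counting error under other scalings: without cycloheximide DLD3 was at 0.013 on library totals and at 0.00044 with TMM scaling. The reported values are small, the intervals hold no spread between libraries, and the difference was not tested because each group held 1 library.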

How the results depend on the processing

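Counts of members past 2-fold stayed within 1.5 times of the reported ones under other scalings, pseudocounts and read minimums. On library totals they were 4, 4, 3 and 3 for the enrichments, their difference and the inputs. At 500 reads CYC7 and CYB2 were no longer measured without cycloheximide. At 4-fold 1 member was above the median gene without the drug, 2 in the difference and 0 in the inputs, and at 1.5-fold 1 member, CYC3, was below it in the inputs. The gap between presequence-bearing enzymes and cytochrome c with cycloheximide was 3.57 without CCP1, 4.24 without CYB2, 3.32 without DLD1, 3.88 against CYC1 alone and 4.11 against CYC7 alone. Without the drug it was 1.99 without CCP1, 2.10 without CYB2, 1.55 without DLD1, 1.74 against CYC1 alone and 1.59 against CYC7 alone. No member past 2-fold changed sign. On library totals 31 of the members' values lay outside the intervals of the reported ones, and 9 lay inside.

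Counts over all genes depended more on the setting. On library totals 499 genes were 2-fold higher and 880 lower with cycloheximide, against 682 and 11 around the median gene, the difference had 234 higher and 693 lower, against 492 and 32, and the inputs had 1875 and 115, against 568 and 560. Genes below in the enrichments and their difference numbered 31, 26 and 82 at 20 reads and 4, 0 and 2 at 500. At 1.5-fold 124, 52 and 201 were below, 537 were above without the drug, and the inputs had 1122 above and 1176 below. At 4-fold 453, 76, 143 and 178 were above and 1, 0, 0 and 58 below. No paired analysis was possible because each group held 1 library. With 91 input reads, CYB2 without cycloheximide had the widest interval of the members past 2-fold in enrichment.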
